A study of Mus musculus with 6 samples.

Results

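The genes described here build the MHC class I presentation pathway. They are 10 listed genes of the 32285 in the files: H2-K1, H2-D1, H2-Q7, B2m, Tap1, Tap2, Tapbp, Psmb8, Psmb9 and Nlrc5. They were taken by symbol, and each symbol matched 1 row. No measured value entered the rule, but the list was drawn up with earlier results of these data known. Expression was measured in single cells of mouse lung with the Chromium Single Cell 3' kit (version 3.1). There were 3 libraries from normal lung (Control) and 3 from lung infiltrated by Trp53 R172H/Δ acute myeloid leukaemia (AML). Non-haematopoietic niche cells were sorted after digestion with Liberase and DNaseI, and the AML libraries also received sorted GFP+ leukaemia cells at 20%, with 80% niche cells. The labels give no strain, age or sex, nor the animal behind each library, so p-values measure only how far libraries spread, which may be technical.

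MHC class I molecules display short peptides from inside the cell to CD8 T cells, and the same molecules are read by inhibitory receptors of natural killer (NK) cells. The immunoproteasome cuts proteins into peptides, a transporter carries the peptides into the endoplasmic reticulum, and a loading complex places them on a heavy chain paired with beta-2 microglobulin. Endothelial cells are known for a high basal level of class I, and interferon gamma, acting in part through IRF1 and NLRC5, is a classical inducer of the whole pathway.

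Most of these genes lie together in the MHC region of chromosome 17. Coordinates are whole protein-coding genes, introns included, of GENCODE M21 on mm10. The heavy chains H2-K1 (17:33996017-34000347, minus strand) and H2-D1 (17:35262730-35267499, plus strand) are the classical class I molecules. H2-Q7 (17:35439155-35443773, plus strand) is a non-classical heavy chain whose near-identical neighbours, H2-Q6 among them, can share its reads, so its counts, and to a lesser degree those of the other heavy chains, are uncertain. Psmb9 (17:34181987-34187764, minus strand) and Psmb8 (17:34197721-34201454, plus strand) encode catalytic subunits of the immunoproteasome. Tap1 (17:34187553-34197225, plus strand) and Tap2 (17:34203527-34216321, plus strand) encode the subunits of the peptide transporter, and Tapbp (17:33915899-33929292, plus strand) encodes tapasin, which bridges the transporter and the heavy chain. B2m (2:122147686-122153083, plus strand) encodes the light chain. Nlrc5 (8:94434356-94527272, plus strand) encodes the transactivator that is recruited to class I promoters. Tap1 and Psmb9 are transcribed away from each other, with 225 bases between their RefSeq start sites.

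The promoters of 3 of the genes are shown for 2 reasons. The levels of these genes varied together over cell classes and libraries taken jointly, and NLRC5 is known to act at class I promoters. They are RefSeq sequences of GRCm38.p6, written 5′ to 3′ on the strand of the gene. Capitals mark, on either strand, GGGATTCCC (NF-kB type), AANNGAAA (interferon regulatory factor type), TGACG (cyclic AMP response element type) and CCAAT. The H2-K1 stretch is chr17:34000354-34000462 (minus strand, 115 to 7 bases before the start), that of H2-Q7 is chr17:35439018-35439148 (plus strand, 137 to 7 before), and that of B2m is chr2:122147545-122147643 (plus strand, 142 to 44 before).
H2-K1: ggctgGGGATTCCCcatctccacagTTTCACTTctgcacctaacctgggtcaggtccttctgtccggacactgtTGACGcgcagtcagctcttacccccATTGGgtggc
H2-Q7: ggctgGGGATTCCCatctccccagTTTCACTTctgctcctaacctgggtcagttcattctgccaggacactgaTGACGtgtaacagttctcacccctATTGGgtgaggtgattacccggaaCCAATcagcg
B2m: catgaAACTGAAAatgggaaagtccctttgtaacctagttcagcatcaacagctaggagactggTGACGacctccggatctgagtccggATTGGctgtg

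H2-K1 and H2-Q7 carried the marked letters in the same order, starting with GGGATTCCC, and were identical at 84.4% of 109 aligned bases. H2-D1, which is not printed, was identical to H2-K1 at 89.9% of them and held the same 4 kinds of match. The RefSeq table held promoters (250 bases before to 50 after the start) of 8 of the 10 genes. Of its 32851 promoters, 0.353% held GGGATTCCC (0.107% with a further G before it), and so did those of H2-K1, H2-D1 and H2-Q7. The shorter words were common: AANNGAAA was in 23.9% of all promoters and 4 of 8 members, TGACG in 20.8% and 6 of 8, and CCAAT in 37.4% and 7 of 8. AANNGAAA was settled on after longer forms had been tried: a form 2 letters longer was in 3.44% of promoters and in B2m alone of the members, and GAANNGAAA in 7.52% and in H2-K1, H2-D1 and H2-Q7. An X-box word of 11 letters was in 0.189% and in none of the 8 members. Lack of a match to that word does not show that an X-box is absent. These matches describe letters, not binding.

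Of 28516 barcodes, 23745 cells were kept, 1718 to 5790 per library, with 19060359 to 46018541 UMIs (unique molecular identifiers, each counting 1 captured transcript) in each library. Cells fell into 31 clusters, which were named from marker genes, and 3 stayed unnamed. Any pair of libraries shared 1 to 24 deposited barcodes, at most 0.461% of those of the smaller library. None of the 10 members was among the 2000 genes used for clustering. Levels below are in CPM, the UMIs of a gene per 1000000 UMIs of its class in a library, a share of RNA and not an amount per cell, and they are compared between classes for 1 gene at a time.

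H2-K1 and H2-Q7 had their highest mean level in T or NK cells and H2-D1 in aerocytes, the other capillary cell type of the alveolus, and all 3 heavy chains had their lowest in the leukaemia cells. H2-K1 stood at 2003 ± 419 (SD, n = 5) CPM in T or NK cells and at 1800 ± 579 (n = 6) in general capillary endothelial cells, the most numerous niche class. In alveolar type 2 cells, which make surfactant, it was 537 ± 116 (n = 6), and in leukaemia cells 201 ± 3.7 (n = 3). B2m had its highest mean in aerocytes, at 3385 ± 535 (n = 6), and its lowest in ciliated cells at 129 ± 38.4 (n = 6). Neighbouring classes mostly could not be ordered: of 16 neighbouring pairs in the order of each gene, the library ranges overlapped in 15 or 16. These levels are a description and were not tested, because the classes were made from the same cells.

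**Figure D1:**
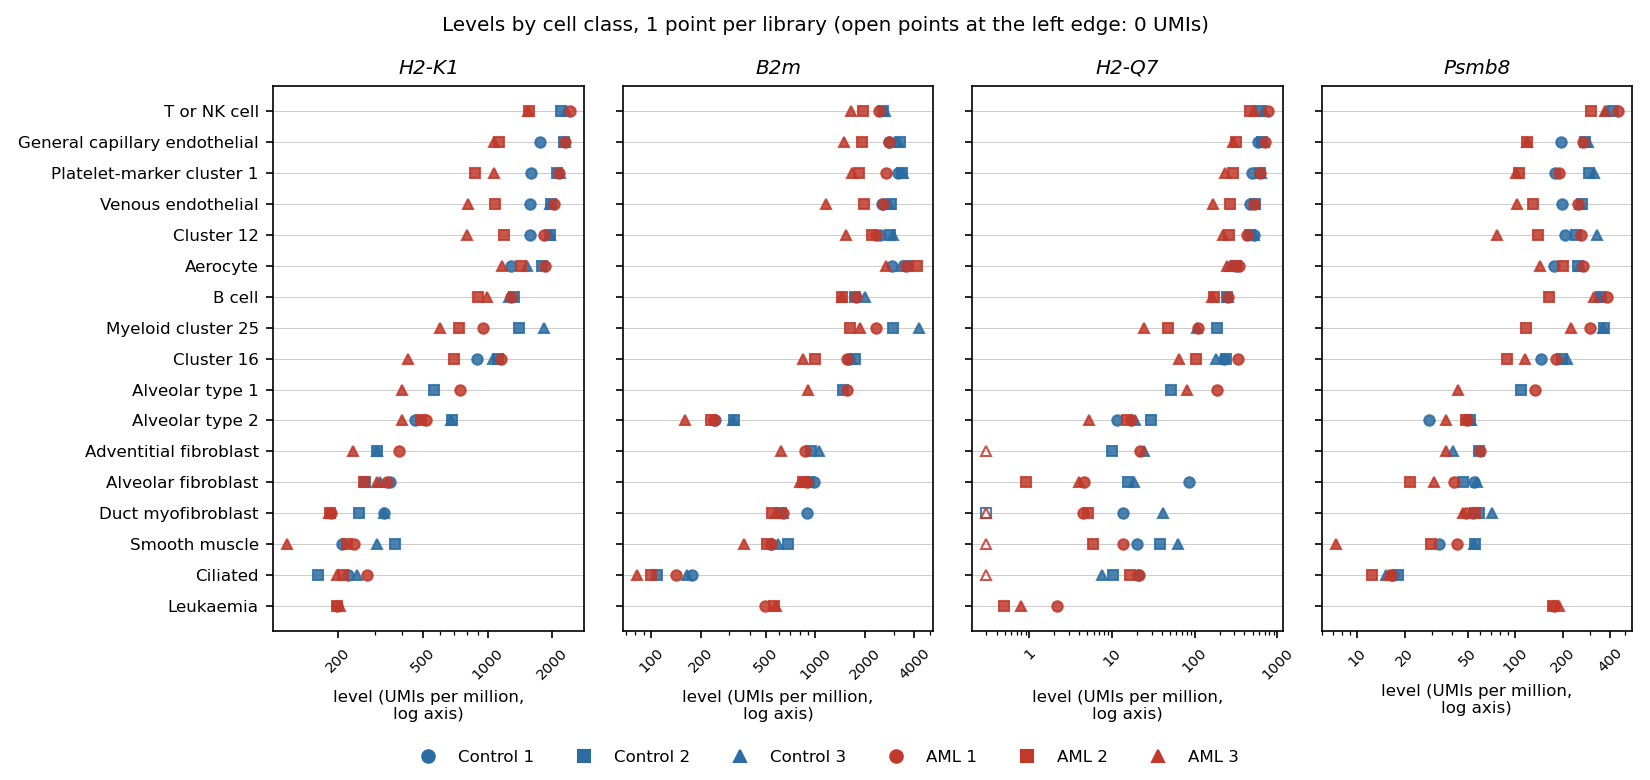
Levels of H2-K1, B2m, H2-Q7 and Psmb8 (CPM, log axes) in each cell class, with 1 point per library. H2-K1 in leukaemia cells sits near 201 in all 3 AML libraries, below every library of general capillary cells, while Psmb8 in leukaemia cells (180 ± 8.1) lies inside the capillary range.

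Leukaemia cells, named from early blood cell markers, numbered 603, 1135 and 1094 in AML 1, 2 and 3, and 11 cells of Control libraries also carried the name. Their 3 libraries lay close together for most members. H2-K1 was 198, 198 and 205 CPM, and B2m 496, 564 and 577. H2-Q7 was almost undetected, at 2.2, 0.5 and 0.8 CPM from 70 UMIs. Nlrc5 gave 7 UMIs in all leukaemia cells. Leukaemia cells held a median of 29817, 22906 and 20556 UMIs per cell in AML 1 to 3. General capillary cells held 3488.5, 3994 and 2766, so an order by share of RNA need not be an order per cell.

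As a share of RNA within each AML library, H2-K1 in general capillary cells was 5.22 to 11.5 times its level in leukaemia cells. The ratio was 6.35 to 10.8 for H2-D1, 328 to 630 for H2-Q7 and 2.57 to 5.67 for B2m. Leukaemia cells differed much less in the genes for making and loading peptides. The capillary level was 0.627 to 1.53 times theirs for Psmb8, 0.910 to 3.58 times for Psmb9, 0.843 to 2.38 times for Tap1, 1.20 to 2.32 times for Tap2 and 1.10 to 2.50 times for Tapbp. Psmb8, Psmb9 and Tap1 thus had no constant order between these classes across the 3 libraries. Nlrc5 was highest in T or NK cells, at 28.7 ± 6.66 CPM (n = 5), and gave 0 UMIs in ciliated cells of all libraries, which allows up to 1.11 CPM (the level of 3 UMIs over all libraries).

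The main comparison asked how class I genes differed in niche cells of AML-infiltrated lung. In general capillary cells, Nlrc5 fell 3.10-fold and was the only member to pass the test. UMI counts were summed per library and class and fitted with edgeR's quasi-likelihood test, with Benjamini-Hochberg adjustment over all genes tested. Nlrc5 stood at 22.4, 11.8 and 16.4 CPM across Control 1 to 3 (174, 130 and 129 UMIs), and at 7.6, 5.3 and 2.8 in AML 1 to 3 (67, 47 and 24 UMIs). Every AML library lay below every Control library. The log2 change was -1.63 (SE 0.33, edgeR adjusted p = 0.0326). Leaving out Control 1 ended the call (-1.41, edgeR adjusted p = 0.168), as did leaving out Control 3 (-1.63, 0.0952), AML 2 (-1.67, 0.0688) or AML 3 (-1.33, 0.116).

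All 10 members had a change below 0, with a median log2 change of -0.57, against 0.00 for all genes. 1 of the 10 passed, and 3.09% of all 11558 genes tested did. For 4 members, Nlrc5, Tapbp, Tap1 and Tap2, all AML libraries lay below all Control libraries, and this held for 15.6% of all genes. Without AML 1, 7 members passed (H2-Q7, Tap1, Tap2, Tapbp, Psmb8, Psmb9 and Nlrc5), and the count over all genes rose to 1322, while without Control 1 both counts were 0.

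The transporter and its bridge showed the clearest separation among members that did not pass. Tapbp stood at 239, 236 and 253 CPM across Control 1 to 3, against 190, 94.4 and 98.9 in AML 1 to 3 (log2 change -0.91, edgeR adjusted p = 0.0732). Tap1 stood at 73.8, 71.6 and 71.7 in Control and 53.9, 27.8 and 22.3 in AML (-1.04, edgeR adjusted p = 0.0629). Tap2 stood at 107, 96.1 and 101 in Control and 86.1, 63.4 and 50.6 in AML (-0.57, edgeR adjusted p = 0.118). For these genes AML 1 lay between the Control libraries and the other AML libraries.

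The heavy and light chains and the immunoproteasome overlapped between groups, with AML 1 at Control levels. H2-K1 stood at 1750, 2269 and 2290 CPM across Control 1 to 3, against 2286, 1134 and 1069 in AML 1 to 3 (log2 change -0.47). H2-D1 stood at 2620, 3298 and 3011 in Control and 3443, 2136 and 1995 in AML (-0.22). B2m stood at 2787, 3276 and 3173 in Control and 2814, 1929 and 1482 in AML (-0.54). In all 3 chains AML 2 and AML 3 were below the lowest Control library and AML 1 was above it. H2-Q7 stood at 583, 647 and 695 in Control and 712, 313 and 292 in AML (-0.53). Psmb8 stood at 196, 277 and 291 in Control and 271, 118 and 118 in AML (-0.58). Psmb9 stood at 152, 243 and 238 in Control and 218, 57.0 and 72.6 in AML (-0.86). None of these 6 genes passed the test.

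**Figure D2:**
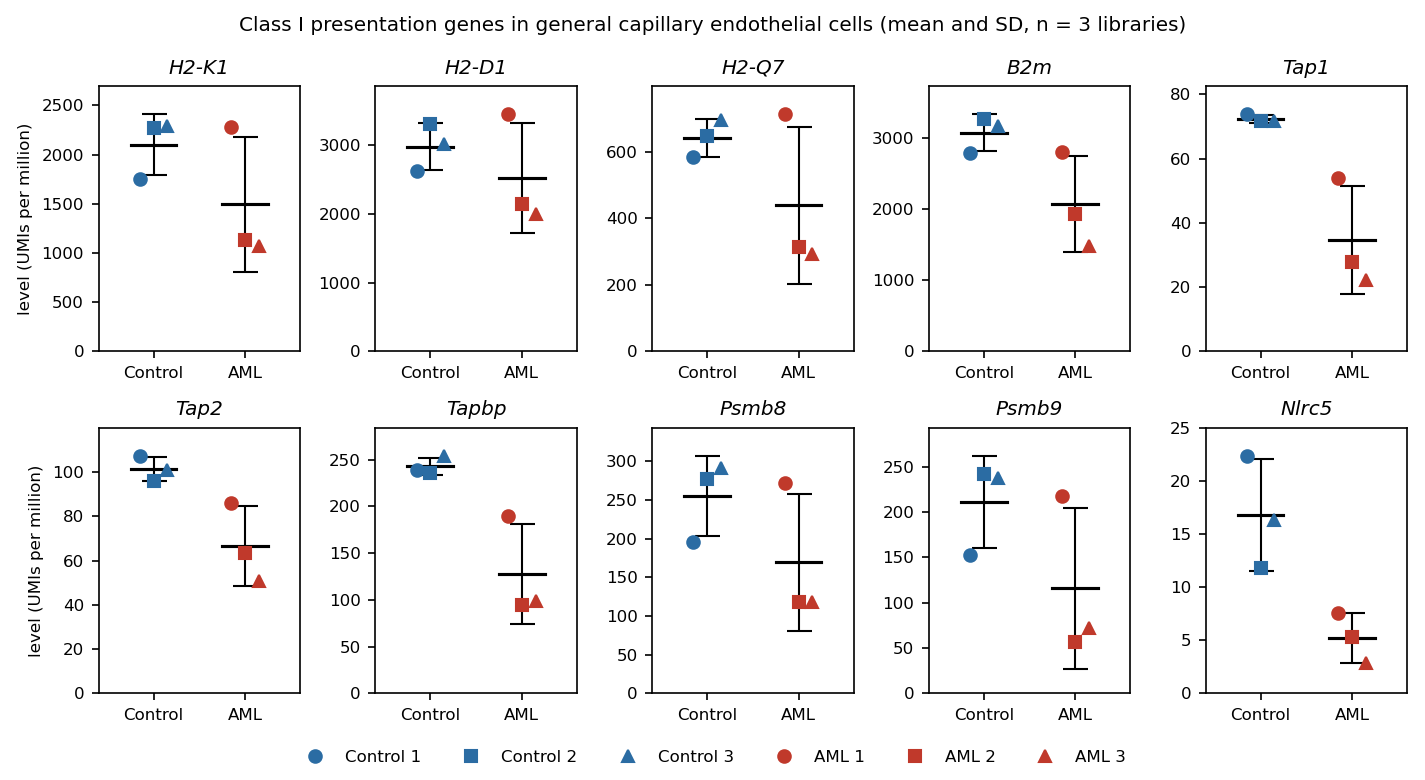
Level of each of the 10 genes in general capillary cells (CPM, linear axes from 0), 1 point per library with the mean and SD of 3 libraries. AML 1 lies at or above the lowest Control library for 6 of the 10 genes, and AML 2 and AML 3 for 0.

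The wider pathway was read from a list of 45 genes, 44 of them in the files. In general capillary cells 42 were tested: 1 fell, Nlrc5, and 0 rose, against 1.9% and 1.19% of all genes. An unadjusted p under 0.05 was found for 11 of the 42 and for 23.4% of all genes, and 36 changes were below 0, as were 49.8% of all genes.

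By role, medians below 0 were shared by 8 tested genes for transport, trimming and loading (-0.66), 5 immunoproteasome genes (-0.58) and 8 non-classical class I heavy chains (-0.52), and none of these 21 passed. The standard proteasome subunits that the immunoproteasome subunits replace had changes above 0 (Psmb5 0.33, Psmb6 0.54, Psmb7 0.29). None of the 3 passed, and in all 3 every AML library lay above every Control library, as in 14.6% of all genes. Irf1, a factor induced by interferon, had a log2 change of -0.38, and the 4 interferon receptor chains had a median of -0.14. None of those passed.

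General capillary cells were not the same mixture in each library. Clusters 5 and 6 held most of them in Control (39.0%, 57.2% and 51.7% in cluster 5, and 44.5%, 19.2% and 26.6% in cluster 6). In AML 2, cluster 9 held 81.0%, and in AML 3, cluster 8 held 66.0%, while AML 1 was spread over cluster 5 (31.4%), cluster 8 (25.2%) and cluster 7 (23.8%). Levels were therefore also read within single clusters. Clusters 3 and 5 alone had at least 20 cells in every library. Cluster 3 was shallow: its cells held a median of 0.29 times the median UMIs of their library, and Lars2 and Gm42418 led its genes. Under a stricter naming that kept clusters 5, 8 and 21 in the class, Nlrc5 passed (-1.83, edgeR adjusted p = 0.0190). The mixture still differed there. Cluster 5 held 336, 1217 and 852 cells in Control 1 to 3, and cluster 8 held 7, 87 and 32. In AML 1 to 3, cluster 5 held 745, 20 and 42 cells, and cluster 8 held 598, 263 and 1827. That fit cannot tell a change within clusters from a change of mixture.

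In cluster 3, H2-K1 stood at 1197, 1486 and 1521 CPM across Control 1 to 3, against 1738, 917 and 879 in AML 1 to 3. In cluster 8, which had under 20 cells in Control 1, it stood at 2141 and 2256 in Control 2 and 3 and at 2146, 903 and 1041 in AML 1 to 3. In both clusters AML 2 and AML 3 were lowest and AML 1 lay above the lowest Control library, as in the whole class. In cluster 5, H2-K1 stood at 1795, 2374 and 2396 in Control and at 2354, 1804 and 1274 in AML, so there only AML 3 lay below all Control libraries. Cluster 5 held 20 cells of AML 2 and 42 of AML 3. In cluster 9, which held 15 Control cells in all, the AML libraries stood at 2190, 1149 and 1103.

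Psmb9 was lowest in AML 2 and AML 3 in clusters 3 and 8. It stood at 118, 178 and 150 CPM in the Control libraries, against 163, 84.0 and 66.5 in AML in cluster 3 (11 and 13 UMIs in AML 2 and 3). In cluster 8 it stood at 221 and 185 in Control 2 and 3 and at 177, 65.4 and 73.1 in AML. In cluster 5, Psmb9 stood at 163, 251 and 249 in Control and at 247, 239 and 101 in AML (18 and 12 UMIs in AML 2 and 3). Only AML 3 lay below all Control libraries there. Tap1 in cluster 5 stood at 86.7, 69.1 and 75.9 in Control and at 59.5, 106 and 84.4 in AML (8 and 10 UMIs in AML 2 and 3), so there it was not lower in AML 2 and AML 3.

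Nlrc5 gave few UMIs in single clusters. In cluster 5 its level was 21.2, 12.01 and 16.5 CPM across Control 1 to 3 (70, 84 and 73 UMIs), against 5.73, 0 and 16.9 in AML (18, 0 and 2 UMIs), so AML 3 was not below the Control libraries. Cluster 8 gave only 1 and 0 UMIs of Nlrc5 in Control 2 and 3 (levels of 3.46 and 0). Its AML libraries gave 13, 6 and 11 UMIs (levels of 6.44, 7.85 and 2.13). No library can lie below a level of 0, so cluster 8 cannot show whether Nlrc5 was lower in AML. With clusters 3 and 5 only, the log2 change of Nlrc5 was -1.31 (edgeR adjusted p = 0.0981), and 0 members passed. A small group, cluster 21, was led by interferon-induced genes such as Isg15 and Iigp1 and made up 2.09% to 3.06% of general capillary cells in Control and 0% to 0.717% in AML. In Control 2 and 3 its Psmb8 level was 515 and 541 CPM, above that of the whole class, and Nlrc5 stayed called without it.

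**Figure D3:**
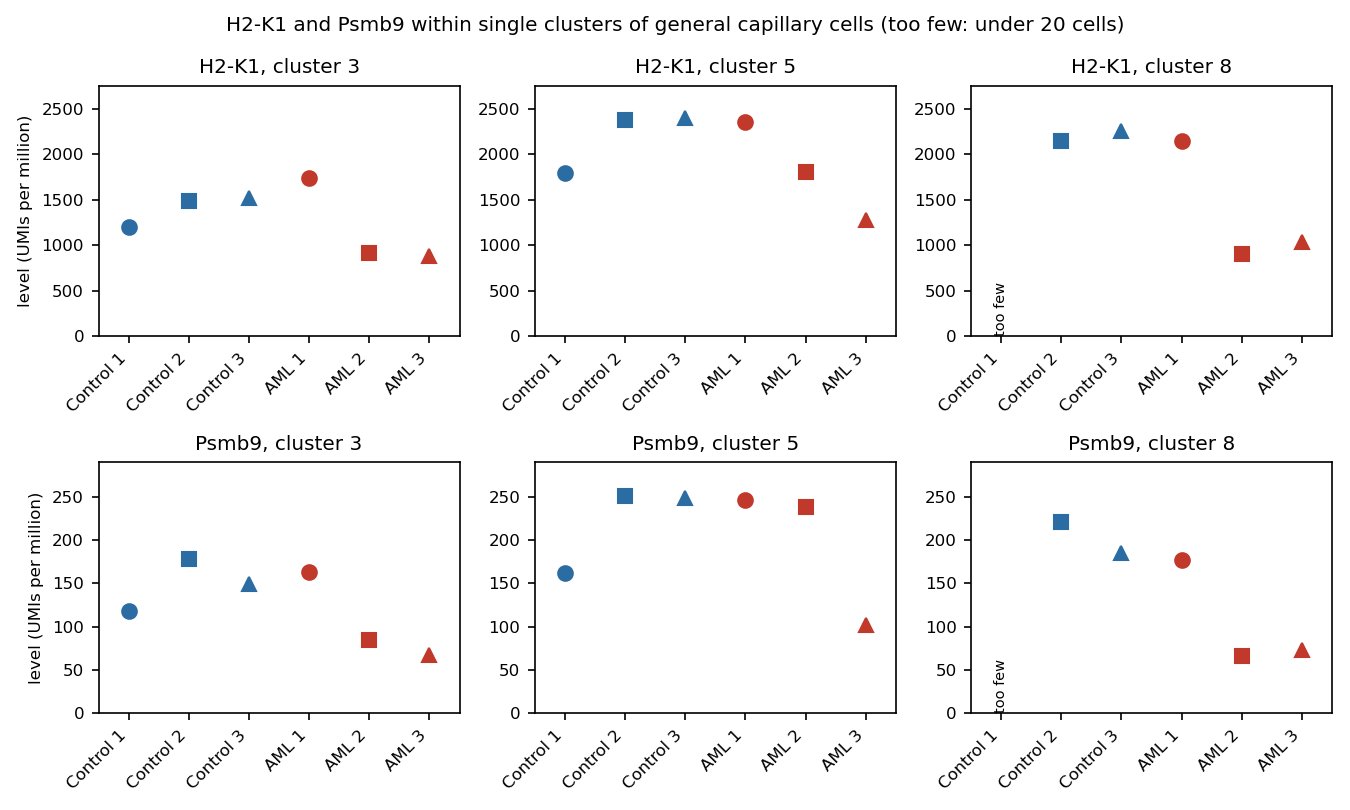
Levels of H2-K1 and Psmb9 (CPM, axes from 0) in single clusters of general capillary cells, by library. In clusters 3 and 8, AML 2 and AML 3 lie below the Control libraries shown, while in cluster 5 AML 2, with 20 cells, does not.

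Markers of other cell types were also read in this class. The summed level of 8 haematopoietic markers was 507 to 714 CPM in the Control libraries, against 742 to 950 in AML. Srgn, which endothelial cells also express, gave nearly all of it, and Ptprc, the defining marker of white blood cells, stood at or under 0.386 in every library. Of 4 leukaemia markers, Gata1 stood at 0 in Control and at 0.454 to 0.826 in AML. Myb was 0 to 0.254 in Control and 1.14 to 2.12 in AML. The other markers were not higher in AML. Gata2, the highest of the 4, ranged from 458 to 621 in Control and from 384 to 610 in AML. Hba-a1 ranged from 11.7 to 17.5 in Control and from 5.31 to 6.24 in AML. The part of these in the class I values was not tested.

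Across all 10 classes tested, 78 gene-by-class tests of the members gave 2 genes lower and 0 higher, with 22 at an unadjusted p under 0.05 and 71 of 78 changes below 0. Over all genes in these classes, 15.5% of tests had an unadjusted p under 0.05 and 49.9% of changes were below 0. At the adjusted threshold, 0.318% to 4.37% of all genes passed, depending on the class. These tests share libraries and are not independent. The other call was Tapbp in alveolar fibroblasts, the lipid-rich fibroblasts of the alveolar wall. It fell 2.03-fold, from 128, 114 and 98.1 CPM in Control 1 to 3 to 63.7, 46.2 and 57.8 in AML 1 to 3, with no overlap, as in 11.2% of all genes. The log2 change was -1.02 (SE 0.25, edgeR adjusted p = 0.0224). 1 of 6 members tested passed there, against 3.74% of all genes.

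The fibroblast call of Tapbp held without AML 1 and was lost without any other library, with edgeR adjusted p of 0.0542, 0.0524 and 0.0585 without Control 1, 2 and 3, and 0.137 and 0.0884 without AML 2 and AML 3. It was also lost under DESeq2 (adjusted p = 0.051). The summed level of 3 endothelial markers moved with the group in alveolar fibroblasts, at 562, 70.2 and 301 CPM in the Control libraries, against 27.3, 48.9 and 30.9 in AML. None of the 3 was at 0. Tapbp itself was 239, 236 and 253 CPM in general capillary cells of Control. The part of endothelial RNA in the fall of Tapbp in alveolar fibroblasts was not tested. Calr, the chaperone calreticulin of the loading complex, also fell in alveolar fibroblasts (log2 change -1.001, SE 0.26, edgeR adjusted p = 0.0302), and did not pass on leaving out Control 1 (0.0509), Control 3 (0.126), AML 2 (0.186) or AML 3 (0.171).

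In venous endothelial cells, 0 of 10 members passed with edgeR or DESeq2, where 0.394% of all genes did with edgeR, and 3 had an unadjusted p under 0.05, as did 12.1% of all genes. Nlrc5 had a log2 change of -2.29 there, from 21.3, 13.3 and 10.7 CPM in Control to 5.7, 1.9 and 0.8 in AML, without overlap, as in 10.8% of all genes (edgeR adjusted p = 0.0918). Tap1 stood at 54.7, 49.8 and 46.3 in Control and 31.5, 14.8 and 12.5 in AML (edgeR adjusted p = 0.0857). Without AML 1, 5 members passed in this class, and the count over all genes rose from 35 to 350. No member passed with edgeR or DESeq2 in duct myofibroblasts, smooth muscle, alveolar type 2 cells, ciliated cells, the unnamed clusters 16 (led by Cytl1, Mgp and Vwf) and 12 (led by Gucy1a1, Calca and Cox4i2). In those classes 1.23%, 0.318%, 4.37%, 0.616%, 0.323% and 1.8% of all genes passed with edgeR, and 2, 1, 2, 1, 2 and 3 members had an unadjusted p under 0.05, as did 14.9%, 9.17%, 20.5%, 9.19%, 11.2% and 12.4% of all genes.

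**Figure D4:**
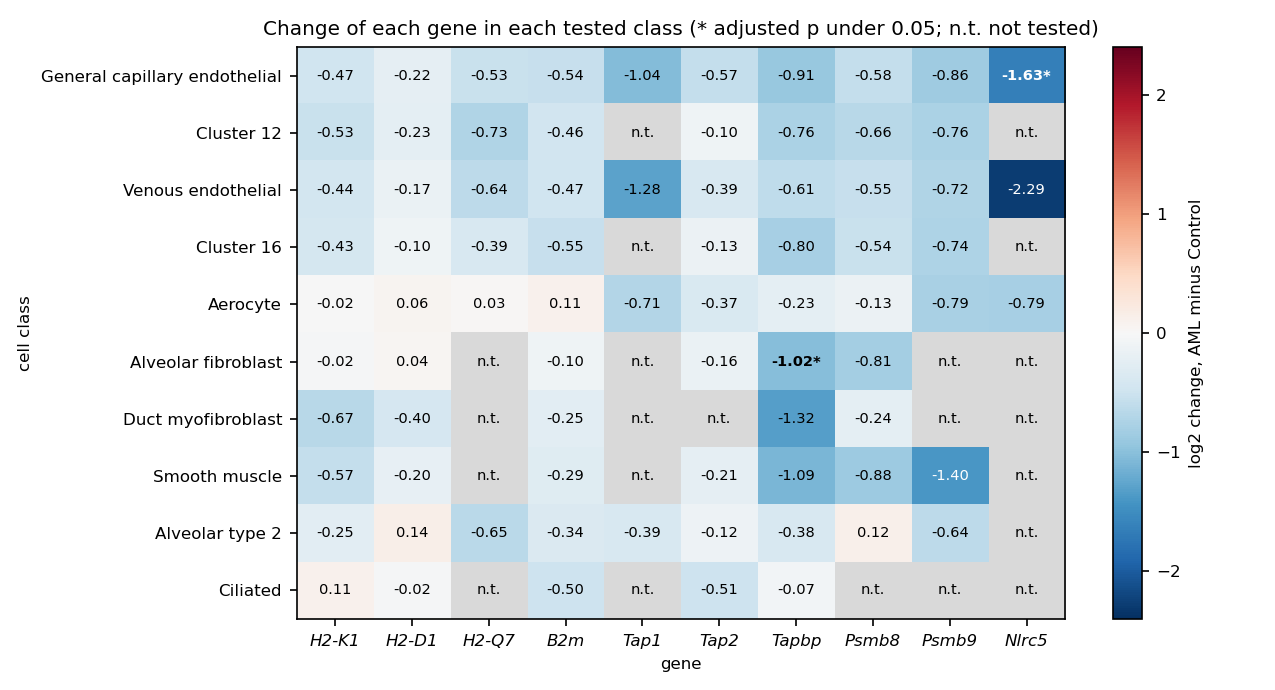
Log2 change (AML minus Control, colour scale) of each of the 10 genes in each tested class, with a star where the adjusted p is under 0.05 and n.t. where the gene was too low to test. Nlrc5 in general capillary cells (-1.63) and Tapbp in alveolar fibroblasts (-1.02) carry the 2 stars, and 71 of the 78 changes are below 0.

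Over the whole list, 321 gene-by-class tests gave 5 lower and 0 higher. Of all genes, 0.318% (smooth muscle) to 4.37% (alveolar type 2 cells) passed in a class, in either direction. Besides those above, H2-Q4, a non-classical heavy chain with close paralogs, fell in smooth muscle (log2 change -2.46, SE 0.49, edgeR adjusted p = 0.0319), and did not pass on leaving out Control 2 (0.143), Control 3 (0.128), AML 2 (0.0951) or AML 3 (0.139). The summed endothelial markers there were 238, 778 and 564 CPM in the Control libraries, against 404, 316 and 14.6 in AML, and their part was not tested. H2-M3, a heavy chain that presents formylated peptides, fell in alveolar type 2 cells (-1.40, SE 0.38, edgeR adjusted p = 0.0409), held without AML 1 and was lost without any other library (0.0519 to 0.234).

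Tapbp, B2m and H2-K1 changed differently in the 2 capillary classes, with log2 changes nearer 0 or above it in aerocytes. In aerocytes 0 of 10 members passed with edgeR or DESeq2, against 3.39% of all genes with edgeR. Of the 10, 2 had an unadjusted p under 0.05, near the 15.8% of all genes, and the median log2 change was -0.18. B2m stood at 2939, 3641 and 3312 CPM across Control 1 to 3, against 3569, 4174 and 2675 in AML 1 to 3, so AML 2 was the highest library. H2-K1 stood at 1284, 1784 and 1521 in Control and 1851, 1430 and 1171 in AML. Tapbp stood at 178, 203 and 196 in Control and 201, 158 and 125 in AML. All 3 genes overlapped between the groups.

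The difference of the AML change between the 2 capillary classes was tested directly, as an interaction with library as a block. It passed for 3 of 10 members, where 1.71% of all genes passed. The change in aerocytes minus that in general capillary cells was 0.66 on the log2 scale for Tapbp (SE 0.13, edgeR adjusted p = 0.00435), 0.64 for B2m (SE 0.14, 0.0109) and 0.48 for H2-K1 (SE 0.13, 0.0489). Tapbp kept its call without any 1 library, and lost it with clusters 3 and 5 only (0.49, edgeR adjusted p = 0.125). B2m lost it without Control 3 (0.0673) or AML 3 (0.17), and under the stricter naming of general capillary clusters (0.79, 0.0668). H2-K1 lost it without any library but AML 1, with edgeR adjusted p of 0.0913, 0.0667 and 0.231 without Control 1, 2 and 3, and 0.156 and 0.232 without AML 2 and AML 3, and also under the stricter naming (0.67, 0.0879).

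The other members gave no call for this difference. It was 0.81 for Nlrc5 (SE 0.42), 0.60 for H2-Q7 (SE 0.30), 0.44 for Psmb8 (SE 0.14), 0.30 for Tap1 (SE 0.19), 0.28 for H2-D1 (SE 0.12), 0.18 for Tap2 (SE 0.15) and 0.07 for Psmb9 (SE 0.18). A missed threshold does not show that the classes changed alike for these genes. Psmb9 in aerocytes stood at 106, 142 and 136 CPM in the Control libraries, against 105, 56.3 and 55.4 in AML, without overlap, as in 12.8% of all genes, and did not pass. Against the other classes, the change of 0 members differed from that in general capillary cells at the adjusted threshold (edgeR), with 12 of 80 differences at an unadjusted p under 0.05, as were 10.1% over all genes. At the adjusted threshold, 0.631% of all genes differed for venous cells, 2.68% for alveolar fibroblasts, 1.89% for duct myofibroblasts and 0.503% for smooth muscle. The shares were 2.56% for alveolar type 2 cells, 1.18% for ciliated cells, 1.61% for cluster 16 and 0.103% for cluster 12.

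**Figure D5:**
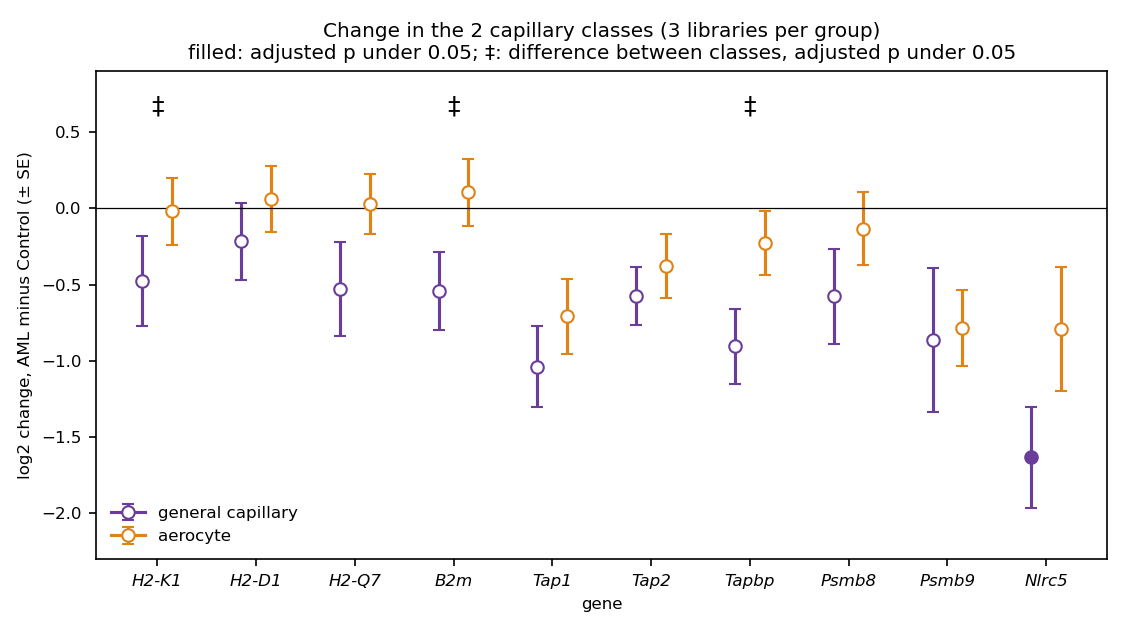
Log2 change (AML minus Control, with SE) of the 10 genes in general capillary cells and aerocytes, 3 libraries per group. Only Nlrc5 in general capillary cells is filled (adjusted p under 0.05), and double daggers mark H2-K1, B2m and Tapbp, whose change differed between the classes by 0.48, 0.64 and 0.66.

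AML 1 stood apart from AML 2 and AML 3 in several classes. In general capillary cells, AML 1 was at or above the lowest Control library for 6 of 10 members, and AML 2 and AML 3 for 0, while 73.9%, 58.4% and 65.0% of all genes tested were so in AML 1, 2 and 3. In venous cells the counts were 8, 0 and 0, where 75.2%, 55.0% and 68.5% of all genes were so. In ciliated cells the counts were 4, 3 and 3 of the 5 members tested, where 77.1%, 67.4% and 75.1% of all genes were so. Immune cells were not tested between groups, since the sort was for non-haematopoietic cells. In T or NK cells, H2-K1 stood at 2189 and 2309 CPM across Control 2 and 3, against 2412, 1565 and 1541 in AML 1 to 3, again with AML 2 and AML 3 lowest.

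Ifng, which encodes interferon gamma, was found in T or NK cells and gave 0 UMIs in general capillary cells, aerocytes, alveolar type 2 cells and leukaemia cells. In T or NK cells it stood at 122 and 78.1 CPM across Control 2 and 3 (54 and 30 UMIs), and at 93.8, 13.1 and 13.3 in AML 1, 2 and 3 (31, 2 and 2 UMIs). AML 2 and AML 3 thus rested on 2 UMIs each. The class had a different mixture in each library: cluster 20 held 16 and 12 of its cells in Control 2 and 3, and 10, 0 and 4 in AML 1 to 3. In the other cluster alone, cluster 15, Ifng had levels of 106 and 50.8 CPM across Control 2 and 3 (37 and 16 UMIs), against 16.8, 13.1 and 0 in AML 1 to 3 (5, 2 and 0 UMIs), so there AML 1 was below both Control libraries. No relation between Ifng and the members was tested.

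The members followed each other across classes and libraries. Over 61 library-by-class sums of 17 classes with at least 50 cells, each member's log2 level had a Spearman correlation of 0.835 (Tap2) to 0.945 (H2-K1) with the mean of the other 9. These points share libraries and cell classes, so the correlations are descriptions. Of 9155 genes outside the pathway list, the 5 most like the members' mean were Gm4070 (0.923), Ifi47 (0.907), Gimap8 (0.896), Gbp9 (0.890) and Gimap4 (0.887). Ifi47 and Gbp9 encode interferon-inducible GTPases, and Gimap4 and Gimap8 encode GTPases of immune cells. Ifi47 stood at 95.3 ± 14.3 CPM (SD, n = 3) in general capillary cells of Control and 44.98 ± 25.4 (n = 3) of AML, and at 5.15 ± 1.41 (n = 3) in leukaemia cells.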

How the data were processed

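The authors deposited, for each of 6 libraries, a matrix of raw counts, the UMIs of each gene in each barcode. Counts were made with Cell Ranger, 6.0.1 per the file headers and 7.0.0 per the submitters' processing notes. Cells with under 500 genes (3415), over 15% mitochondrial UMIs (461) and the 895 top-scoring doublets (Scrublet, 0.8% per 1000 cells) were removed. Cells were clustered with scanpy 1.11.5 (2000 variable genes, 30 components, Leiden resolution 1.0). Clusters were named from fixed markers, with a fold pseudocount of 100 CPM chosen after smaller values had left general capillary clusters 3, 6, 7 and 9 unnamed and before the members were tested. That choice left cluster 16 unnamed. A stricter naming (5 CPM) is an alternative. Testing clusters 12 and 16 by number was also decided after the clusters were seen.

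Counts were summed per library and class (at least 20 cells in every library) and tested with edgeR 4.0.16 (quasi-likelihood, TMM, filterByExpr, Benjamini-Hochberg at 0.05). The difference between classes was an interaction term with library as a block. DESeq2 1.42.0 was an alternative. On simulated general capillary data (11470 genes), the test recovered 97.0% of 4-fold and 61.2% of 2-fold changes. The simulation gave every gene the same spread and had no library standing apart as AML 1 does. Recovery in the real libraries may therefore differ. General capillary sums held 7781565 to 10995765 UMIs per library. Named genes were the members in every tested class and any gene of a pathway list that passed. A further gene of that list is not reported here. The most alike genes were ranked by Spearman correlation. Members and lists were chosen with earlier results of these data known.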

Additional observations from a re-analysis of the deposited data

Results flagged for a closer look

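In 10 cases the AML change in a class differed from that in general capillary cells at an adjusted p under 0.05 (edgeR interaction test), of 380 tested over the pathway list. Of all genes, 0.103% (cluster 12) to 2.68% (alveolar fibroblasts) passed, depending on the class. The difference is the change in the named class minus that in general capillary cells, on the log2 scale. In aerocytes it was 0.66 for Tapbp, 0.64 for B2m and 0.48 for H2-K1.

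The proteasome activator genes Psme1 and Psme2 differed in alveolar type 2 cells (0.71 and 0.68), and Psme1 in ciliated cells (1.02), where 2.56% and 1.18% of all genes passed. Hfe, a class I-like chain that controls iron uptake, differed in alveolar type 2 cells (1.10). H2-T23, which encodes Qa-1, differed in alveolar fibroblasts (1.42), and without Control 3 its edgeR adjusted p was 0.0852. H2-Q4 differed in smooth muscle (-1.96), and Ifnar2, an interferon receptor chain, in cluster 16 (0.79). For Hfe, Psme1, Psme2, H2-Q4 and Ifnar2 the call was lost without at least 1 library.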

How the results depend on the processing

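Each member result was refitted under the alternatives. Of 15 calls, 0 changed sign in any, and of 1451 gene values 46 changed sign, all without a call. In general capillary cells the members passing numbered 3 under DESeq2 and with no filter, 2 with the replicate block, equal cells or stricter naming, 0 with clusters 3 and 5 only, and 0 to 7 with 1 library left out. Correlations were -0.17 to 0.106 for same-numbered libraries and -0.12 to 0.223 for differently numbered ones. With 3 libraries per group, this cannot settle whether replicate numbers pair the samples. The replicate block added Tap1 (-1.13, edgeR adjusted p = 0.0406). Without filter, 1 passed in aerocytes, 2 in venous cells, 2 in alveolar fibroblasts and 1 in smooth muscle. The count over all genes then rose from 305 to 620 in aerocytes, 235 to 558 in alveolar fibroblasts and 20 to 144 in smooth muscle. In alveolar fibroblasts 0 passed under DESeq2, the replicate block, doublets kept, Leiden resolution 0.5 or equal cells. With 1 library left out, counts ranged 0 to 5 in venous cells, 0 to 4 in cluster 12, 0 to 2 in smooth muscle and cluster 16, and 0 to 1 in aerocytes, alveolar fibroblasts, duct myofibroblasts and alveolar type 2 cells. Counts over all genes moved too, 0 to 350 in venous cells, 27 to 207 in cluster 12, 4 to 66 in smooth muscle, 3 to 105 in cluster 16, 58 to 372 in aerocytes, 88 to 304 in alveolar fibroblasts, 9 to 104 in duct myofibroblasts and 60 to 751 in alveolar type 2 cells. Over all genes in general capillary cells the count was 357, with a lowest of 0 (without Control 1) and a highest of 1322 (without AML 1). A higher count of members under an alternative need not be particular to them, since the count over all genes moved as well.

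The members whose change differed from general capillary cells numbered, without filter, 5 in aerocytes, 1 in alveolar fibroblasts, 1 in smooth muscle and 2 in alveolar type 2 cells. They numbered 1 in alveolar type 2 cells with equal cells and 3 in ciliated cells with doublets kept. Leaving out 1 library gave 1 to 5 in aerocytes, 0 to 4 in alveolar type 2 cells and 0 to 2 in ciliated cells. The matching counts over all genes are not given for these differences, so the numbers are no result about the members. The aerocyte differences of H2-K1 (0.67, edgeR adjusted p = 0.0879) and B2m (0.79, 0.0668) lost their calls under stricter naming.

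Changes that turned sign had no call in either fit. In alveolar fibroblasts H2-K1 was 0.056 without filter and 0.0075 with equal cells, and H2-D1 -0.089 with doublets kept and -0.080 at resolution 0.5. H2-D1 was 0.11 in smooth muscle at resolution 0.5. With doublets kept, ciliated H2-D1, B2m and Tapbp were 0.18, 0.27 and 0.0078. With clusters 3 and 5 only, the aerocyte difference was -0.20 for Tap1 and -0.27 for Psmb9, and for Psmb9 it ranged -0.10 to 0.42 with 1 library left out. Leaving out 1 library gave, in aerocytes, ranges of -0.19 to 0.15 for H2-K1, -0.062 to 0.21 for H2-D1, -0.060 to 0.18 for H2-Q7, -0.068 to 0.28 for B2m and -0.36 to 0.087 for Psmb8. H2-D1 ranged -0.38 to 0.013 in venous cells, -0.038 to 0.12 in alveolar fibroblasts, -0.43 to 0.067 in smooth muscle, -0.038 to 0.30 in alveolar type 2 cells, -0.14 to 0.10 in ciliated cells and -0.37 to 0.045 in cluster 16. Tap2 ranged -0.44 to 0.14 in alveolar fibroblasts, -0.42 to 0.062 in smooth muscle, -0.29 to 0.058 in alveolar type 2 cells, -0.31 to 0.082 in cluster 16 and -0.67 to 0.16 in cluster 12. H2-K1 ranged -0.078 to 0.060 in alveolar fibroblasts and -0.050 to 0.24 in ciliated cells, Tapbp -0.24 to 0.17 in ciliated cells, Psmb8 -0.17 to 0.31 in alveolar type 2 cells and H2-Q7 -1.33 to 0.0050 in cluster 16.

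Levels in CPM moved by over 1 SD in 28 cases. With doublets kept, in alveolar fibroblasts H2-K1, H2-D1, H2-Q7, B2m, Psmb8 and Psmb9 became 469, 864, 67.6, 1050, 66.3 and 37.2. In duct myofibroblasts H2-K1, H2-D1, H2-Q7 and Psmb8 became 339, 570, 32.7 and 67.8. Adventitial Tap2 became 22.4, smooth muscle Tap1 4.95, ciliated B2m and Psmb8 174 and 25.5, and leukaemia H2-K1 and H2-Q7 210 and 3.58. At resolution 0.5, smooth muscle H2-K1, H2-D1, H2-Q7, B2m, Tap1, Psmb8 and Psmb9 became 506, 793, 94.9, 873, 10.7, 69.5 and 47.8. With at most 10% mitochondrial UMIs, smooth muscle H2-D1, Tap1 and Tap2 became 293, 4.56 and 20.8, and leukaemia H2-K1 and H2-D1 206 and 329. The causes of these shifts were not tested. Without library scaling the median change of all genes in alveolar type 2 cells was -0.15. Cluster 12 under doublets kept, the shorter clustering gene list, resolution 0.5 or the stricter mitochondrial limit, and cluster 16 under the shorter list or resolution 0.5, gave no value. Depth limits Nlrc5 most, with 24 to 174 UMIs per library in general capillary cells.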
